A study of Mus musculus with 10 samples.

Results

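Cytochrome P450 genes were followed in the kidneys of mice carrying an FGF23 transgene and of their wild-type littermates. They are the genes that a probe set names singly by a symbol of Cyp, a number, a letter and a number, leaving out Cyp24a1 and Cyp27b1, the enzymes of vitamin D breakdown and activation. The rule found 36 genes, read by 42 probe sets, of the 8251 genes that the array names singly. The rule uses symbols and no measured values, though earlier results of these data were known when it was chosen. P450 enzymes are heme proteins, most of them in the membrane of the endoplasmic reticulum, that insert an oxygen atom into their substrates with electrons passed on by a reductase or by cytochrome b5. Members of the CYP1, CYP2 and CYP3 families mostly oxidise drugs and other foreign compounds, the CYP4 family hydroxylates fatty acids, and CYP7, CYP8, CYP11, CYP17 and CYP21 enzymes act on sterols and steroids. In the kidney many of them sit in the proximal tubule, and several P450 genes of the mouse kidney are known to differ between the sexes.

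Whole kidneys of 10 mice of the C57Bl strain were collected at 8 weeks of age and hybridised to Affymetrix MG_U74Av2 arrays, 1 array per animal. The 5 transgenic mice (TG 614, 619, 652, 657 and 661) carried human wild-type FGF23, whose product is a hormone of bone that acts on the kidney, and the 5 littermates (WT 612, 618, 650, 658 and 663) did not. The construct used a promoter of the alpha 1 chain of type I collagen, which is active in bone-forming cells and fibroblasts, and the number of founder lines was not given in the sources used here. Sample titles gave the groups, since the label for genotype is that of the transgenic mice in all 10 animals.

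Values are on the log2 scale after GCRMA, so a difference of 1 is a doubling of signal, and values of different probe sets are not compared as amounts of RNA. A value of 4 served as the floor, and 53.0% to 57.0% of probe sets lay over it on each array. The labels do not give sex. Xist, the RNA of the inactive X chromosome, stood at 9.94 or above in WT 612, WT 650, TG 614 and TG 652 and at 3.36 or below in the other 6 animals, and the Y-linked Eif2s3y went the opposite way. Each genotype thus held 2 females and 3 males. Sex is used below as a term in the model and as a comparison in its own right, although it was no part of the study's design. TG 661 was alone in its chip lot and on its processing day, and WT 663 was alone on its day. Proximal tubule markers (Slc34a1, Lrp2, Cubn, Slc22a6 and Aqp1) were over the floor on all arrays.

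Of the 36 P450 genes, 12 were over log2 4 on at least 5 arrays, by 14 probe sets, and these alone were tested. The share differed by family. All 5 fatty acid genes passed the filter (Cyp4a10, Cyp4a14, Cyp4b1, Cyp4f13 and Cyp4v3), against 6 of 24 drug-metabolizing genes (Cyp1b1, Cyp2d26, Cyp2d9, Cyp2e1, Cyp2j5 and Cyp2s1) and 1 of 6 sterol and steroid genes (Cyp7b1). The single retinoic acid gene, Cyp26a1, whose product breaks down retinoic acid, did not pass. The filter can pass a gene seen in the 6 males alone but not one seen in the 4 females alone. The plot of levels shows the untested genes gathered at and below the floor, and most tested genes well over it in most animals. Closer to it, Cyp4v3 ran from 3.85 to 4.65, Cyp2s1 from 4.15 to 5.56, and Cyp4a14 in males from 3.40 to 6.45.

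**Figure D1:**
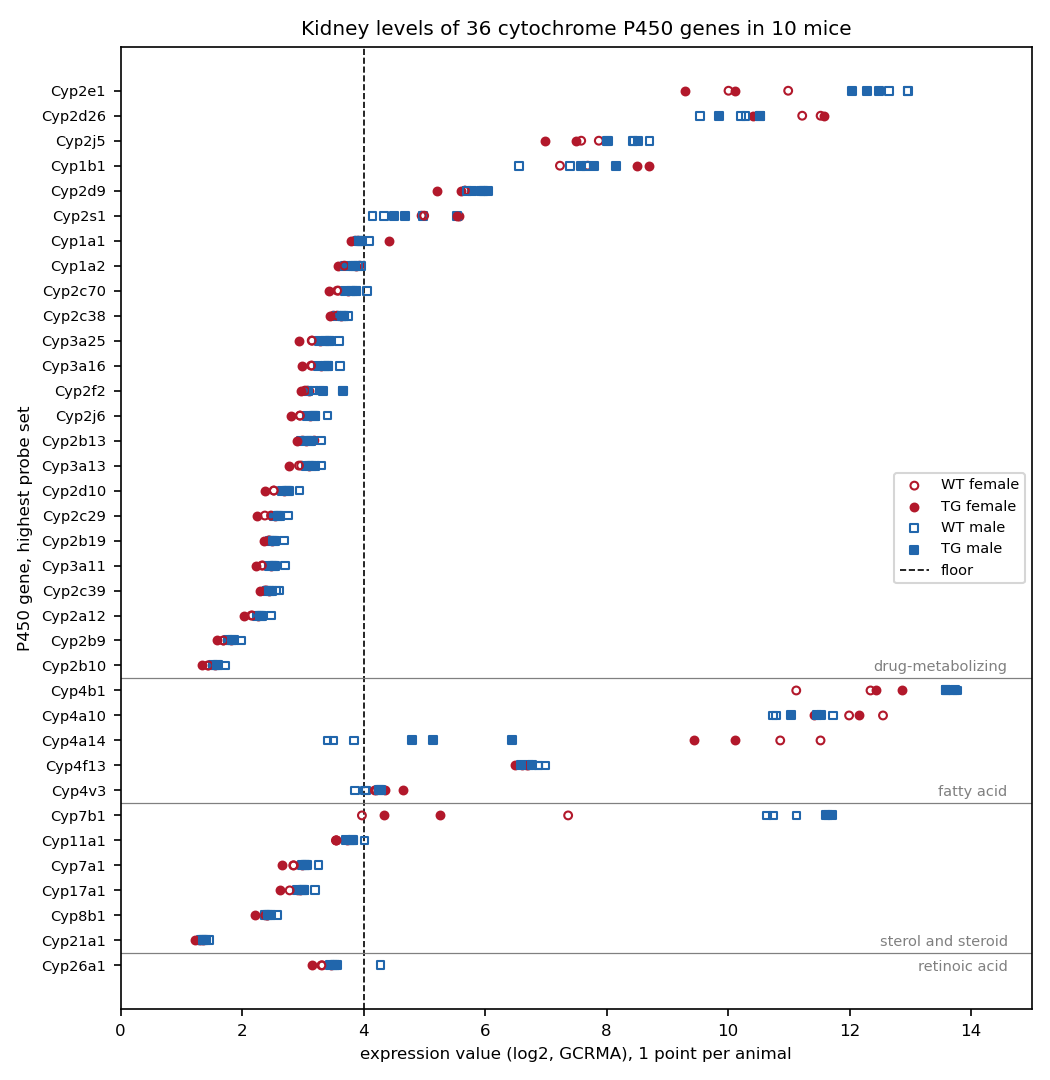
Log2 expression values of the 36 P450 genes (vertical axis, each by its highest probe set, grouped by family) with 1 point per animal, circles for females and squares for males, open for WT and filled for TG; the dashed line is the floor of 4. Of the 36 genes, 12 lie over the floor on at least 5 arrays, and Cyp4a14 and Cyp7b1 spread more widely than the rest.

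The 18 untested drug-metabolizing genes were Cyp1a1, Cyp1a2, Cyp2a12, Cyp2b9, Cyp2b10, Cyp2b13, Cyp2b19, Cyp2c29, Cyp2c38, Cyp2c39, Cyp2c70, Cyp2d10, Cyp2f2, Cyp2j6, Cyp3a11, Cyp3a13, Cyp3a16 and Cyp3a25. Among them are Cyp1a1 and Cyp1a2, targets of the aryl hydrocarbon receptor, and Cyp3a11, a main drug oxidase of mouse liver. The 5 untested sterol and steroid genes were Cyp7a1, the rate-limiting enzyme of bile acid synthesis, Cyp8b1, which makes cholic acid, Cyp11a1, the side-chain cleavage enzyme of cholesterol, and Cyp17a1 and Cyp21a1, which act later in steroid synthesis. In all, 20 of the 24 untested genes lay under the floor on every array. The other 4 crossed it narrowly: Cyp1a1 in TG 614 at 4.42 and WT 658 at 4.09, and Cyp2c70, Cyp26a1 and Cyp11a1 in WT 658 alone.

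Cyp11a1 read 3.55, 3.54, 3.82, 4.01 and 3.77 in WT 612, 650, 618, 658 and 663, and 3.72, 3.55, 3.71, 3.81 and 3.83 in TG 614, 652, 619, 657 and 661. Cyp7a1 read 2.84, 2.85, 3.03, 3.26 and 3.04 in the same WT animals and 2.99, 2.66, 2.98, 3.07 and 3.04 in the TG animals. Cyp26a1 read 3.32, 3.30, 3.53, 4.28 and 3.50 in WT and 3.46, 3.15, 3.45, 3.55 and 3.53 in TG. The genes moved with the arrays: TG 652 was the lowest array for 22 of the 24 untested genes and WT 658 the highest for 21. The same pair of arrays held the lowest and highest median, 2.50 and 2.93, over the 5035 probe sets that were never over the floor. Differences among these P450 genes are therefore not described.

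Markers of other organs are given beside these low values. Of 5 measured adrenal markers 4 (Star, Hsd3b1, Mc2r and Th) lay under the floor on all arrays, and the fifth, Fdx1, is also a mitochondrial redox partner in kidney. Of 7 measured liver markers 4 (Alb, Serpina1c, Ttr and Fgb) were over the floor on all arrays and were tested. Apoa2 was over it on 2 arrays, and Apoa1 and Ahsg lay under it on all. Of the 4 tested, 1 was called by limma, beside 1.22% of all probe sets: Ttr rose in TG (adjusted p = 0.0370). The summed linear signal of the liver list was 361 to 1613 in WT and 1493 to 5439 in TG. Liver P450 genes such as Cyp2c29, Cyp3a11, Cyp7a1 and Cyp8b1 stayed under the floor on all 10 arrays. Of 4 measured adipose markers, Adipoq and Retn read 8.17 and 7.13 in WT 650, and at most 4.91 and 4.26 elsewhere. Fabp4 was also highest there, at 4.51 against at most 4.22, while Lep read 4.57 there and up to 4.87 elsewhere.

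Comparing genotypes asked whether P450 transcripts differ in kidneys under the FGF23 transgene. With TG against WT alone in the model, 0 of the 12 tested genes passed at an adjusted p of 0.05, where 1.22% of all 6814 tested probe sets did (limma, Benjamini-Hochberg adjustment over all of them). At an unadjusted p under 0.05 there were 2 genes, Cyp1b1 and Cyp4v3, beside 12.7% of all probe sets. With sex in the model 0 of 12 passed, beside 4.18% of all, and 6 of 12 were under an unadjusted 0.05, beside 17.7%. These 6 were Cyp1b1, Cyp2s1 and Cyp4v3 on the higher side and Cyp2e1, Cyp2j5 and Cyp4f13 on the lower side. The sexes were balanced between the genotypes, so adding sex left each difference as it was and changed its error. In whole tissue, fewer cells of a type and less RNA per cell cannot be told apart.

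Cyp2e1, which oxidises ethanol, acetone and small solvents, is taken first among the drug-metabolizing genes. It stood at 10.01 and 10.99 in WT females 612 and 650, and at 12.96, 12.64 and 12.95 in WT males 618, 658 and 663. It stood at 9.29 and 10.11 in TG females 614 and 652, and at 12.03, 12.29 and 12.49 in TG males 619, 657 and 661. All TG males lay below all WT males, where 20.7% of all probe sets did not overlap between genotypes in males. The females of the genotypes overlapped, and the sexes were far apart. The difference of TG minus WT was -0.67 with a 95% interval of -1.13 to -0.20 once sex was in the model (SE 0.21, adjusted p = 0.116, against SE 0.76 and adjusted p = 0.764 without sex). The exact two-sided permutation test over all 252 splits of the animals gave p = 0.468, and over the 120 splits within each sex, chosen after the data were seen, p = 0.0333, where 0.0167 is the smallest it can give. With sex and the animal number range (612 to 619 against 650 to 663) both in the model, also chosen afterwards, the adjusted p was 0.0378. That model called 3 of the 12 P450 genes (Cyp2e1, Cyp1b1 and Cyp4v3), beside 8.06% of all probe sets.

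Cyp1b1, which oxidises polycyclic hydrocarbons and oestrogens, had the smallest p of the drug-metabolizing genes. It read 7.23 and 7.69 in WT females 612 and 650, 6.56, 7.40 and 7.66 in WT males 618, 658 and 663, 8.49 and 8.70 in TG females 614 and 652, and 8.16, 7.57 and 7.78 in TG males 619, 657 and 661. TG females lay over all other animals, where 35.9% of all probe sets did not overlap between genotypes in females. TG males overlapped WT males. The difference was 0.84 ± 0.26 (log2, SE; adjusted p = 0.202), or 0.84 ± 0.22 when sex was a term (adjusted p = 0.0663, 95% interval 0.35 to 1.32). It passed with sex and number range in the model (adjusted p = 0.0371), and stood at 1.43 in the animals numbered 612 to 619 and at 0.44 in those numbered 650 to 663. The second Cyp1b1 probe set lay under the floor on all arrays. Of 6 tested leukocyte markers 2 rose in TG (Ctss and C1qa), beside 1.22% of all probe sets called. By limma Ptprc, Lyz2 and C1qb did not pass (adjusted p = 0.412, 0.202 and 0.0696), and Cd14 differed by 0.06. Cd68 lay under the floor on all arrays. The summed linear signal of the list was 454 to 795 in WT and 923 to 2301 in TG, without overlap. The part of these markers in the value of Cyp1b1 was not tested.

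Cyp2j5, an arachidonic acid epoxygenase of mouse kidney, read 7.87 and 7.58 in WT females 612 and 650 and 8.43, 8.70 and 8.44 in WT males 618, 658 and 663. It read 6.98 and 7.49 in TG females 614 and 652 and 8.02, 8.00 and 8.51 in TG males 619, 657 and 661. The TG values lay lower on average and overlapped in males through TG 661, with a difference of -0.41 ± 0.14 when sex was a term (adjusted p = 0.152). Cyp2s1, a P450 of epithelia, averaged 4.68 ± 0.41 in WT and 5.16 ± 0.53 in TG (SD, n = 5), a difference of 0.48 ± 0.26 (SE, adjusted p = 0.495 by limma). Cyp2d26 and Cyp2d9 differed by 0.02 and -0.07, with 95% intervals in the sex model of -0.56 to 0.60 and -0.32 to 0.18. Cyp2d9, known in mouse liver as a testosterone hydroxylase, ran from 5.67 to 5.98 in WT and from 5.21 to 6.05 in TG. A probe set that names Cyp2d12 together with Cyp2d9 differed by 0.48 ± 0.26 (adjusted p = 0.492 by limma).

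Among the fatty acid genes, Cyp4v3, the mouse counterpart of a human gene in which mutations cause a crystalline retinal dystrophy, had the smallest p. It read 4.21 and 4.18 in WT females 612 and 650, 4.04, 4.02 and 3.85 in WT males 618, 658 and 663, 4.65 and 4.36 in TG females 614 and 652, and 4.27, 4.25 and 4.29 in TG males 619, 657 and 661. All TG values lay over all WT values, and Cyp4v3 was the 1 P450 gene of the 12 of which this held, as it did of 4.08% of all probe sets. The difference was 0.30 ± 0.11 (adjusted p = 0.265, or 0.0685 when sex was a term and 0.0370 with sex and number range), at a level close to the floor. Cyp4f13 ran from 6.69 to 6.99 in WT and 6.50 to 6.77 in TG (-0.19 ± 0.09, adjusted p = 0.420). Its second probe set differed by -0.44 ± 0.18 (adjusted p = 0.361).

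Cyp4a10, a fatty acid omega-hydroxylase under control of the receptor PPAR alpha, read 11.99 and 12.55 in WT females 612 and 650 and 10.74, 11.72 and 10.79 in WT males 618, 658 and 663. It read 11.41 and 12.15 in TG females 614 and 652 and 11.03, 11.46 and 11.53 in TG males 619, 657 and 661. The genotypes overlapped in both sexes, with a difference of -0.04 and a 95% interval of -0.60 to 0.52 in the sex model. Cyp4b1, which hydroxylates fatty acids and activates furan toxins, differed by 0.34 (interval -0.21 to 0.89), Cyp4a14 by 0.56 (-0.74 to 1.86) and Cyp7b1 by 0.14 (-1.12 to 1.41). Signs were not stable for these genes when 1 animal was left out, in fits without a sex term whose sexes were then unbalanced. Without WT 612 the difference of Cyp4b1 was -0.11, without WT 663 that of Cyp4a14 was -0.25 and without WT 650 it was 1.78. WT 612 also had the largest gap between the 3′ and 5′ actin control probe sets, a sign of RNA quality, at 3.35 where the other arrays ran from 1.82 to 2.90, and with that gap and sex in the model the difference of Cyp4b1 was 0.09. The values of these 3 genes in each animal follow with sex, which separated them more widely. Probe sets of Cyp4a10 and Cyp4b1 carry the suffix that Affymetrix gives to sets sharing probes with similar sequences, so signal from close relatives is not separated there.

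Set by family, the median difference of TG minus WT was -0.03 over the 6 drug-metabolizing genes (3 positive and 3 negative, from -0.67 to 0.84) and 0.30 over the 5 fatty acid genes (3 positive and 2 negative, from -0.19 to 0.56). The sterol family had 1 gene, Cyp7b1, at 0.14, and the median of all tested probe sets was -0.02. The sign of both larger families' medians turned when single animals were left out, with ranges of -0.14 to 0.08 and -0.17 to 0.25, and Cyp7b1 then ran from -1.06 to 1.29. The fits with 1 animal left out held no sex term, and the sexes were then unbalanced between the genotypes. The absolute difference had a median of 0.32 over the 12 genes and 0.13 over all probe sets. The summed linear signal of 5 proximal tubule markers was 21229 to 26294 in TG and 27450 to 32696 in WT. Slc34a1, with the highest values, weighs most in that sum. None passed the test (0 of 5, beside 1.22% of all probe sets). Slc34a1 (-0.40) and Slc22a6 (-0.83) were called lower once sex was in the model, beside 4.18% called in all. Cubn (-0.26), Aqp1 (-0.07) and Lrp2 (0.01) were not. The part of these 5 markers in the P450 values was not tested.

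**Figure D2:**
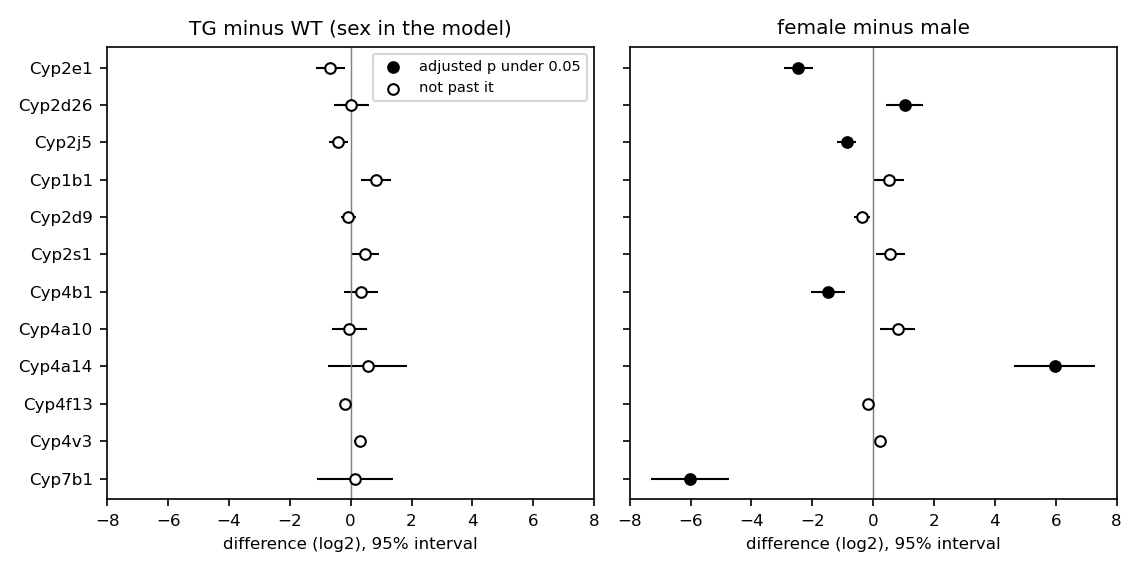
Log2 difference of TG minus WT (left, sex in the model) and of female minus male (right, genotype in the model) for the 12 tested P450 genes, with 95% intervals from limma; filled points passed an adjusted p of 0.05. None of the 12 is filled on the left and 6 are filled on the right.

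Sex gave calls where genotype gave none. With genotype in the model 6 of 12 genes passed for female minus male, beside 8.53% of all probe sets, 4 of them lower in females (beside 4.45%) and 2 higher (beside 4.08%). In 6 of 12 genes the values of females and males did not overlap, beside 8.35% of all probe sets. The absolute difference between the sexes had a median of 0.84 over the 12 genes and 0.18 over all probe sets. The drug-metabolizing family had 3 calls of 6 (Cyp2e1 and Cyp2j5 lower in females, Cyp2d26 higher), the fatty acid family 2 of 5 (Cyp4b1 lower, Cyp4a14 higher) and the sterol family its 1 tested gene (Cyp7b1 lower). With 2 females and 3 males in each genotype, these p-values rest on few animals. Within WT alone 2 of 12 passed (Cyp2e1 and Cyp4a14), beside 1.61% of all probe sets, and within TG alone 3 (these and Cyp7b1), beside 0.837%.

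The promoters of 4 of the 6 genes that differed by sex are shown so that the sequence before genes with a sex difference can be read beside their values. They are the 250 bases before the start of each gene from RefSeq (GRCm38.p6), 5′ to 3′ on the gene's strand. RefSeq promoters matched 30 of the 36 P450 genes and 9 of the 12 tested ones, which left Cyp4a10, Cyp4a14 and Cyp7b1 without one. Cyp2e1 lies at chr7:140763569-140763818 (plus strand), Cyp2j5 at chr4:96664120-96664369 (minus), Cyp4b1 at chr4:115647722-115647971 (minus) and Cyp2d26 at chr15:82794246-82794495 (minus). Capitals mark matches to any of 5 searched motifs.
Cyp2e1: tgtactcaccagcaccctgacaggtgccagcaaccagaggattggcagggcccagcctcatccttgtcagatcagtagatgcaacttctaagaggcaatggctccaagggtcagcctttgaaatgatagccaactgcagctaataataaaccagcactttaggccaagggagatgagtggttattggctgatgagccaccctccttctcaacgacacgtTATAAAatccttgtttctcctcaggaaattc
Cyp2j5: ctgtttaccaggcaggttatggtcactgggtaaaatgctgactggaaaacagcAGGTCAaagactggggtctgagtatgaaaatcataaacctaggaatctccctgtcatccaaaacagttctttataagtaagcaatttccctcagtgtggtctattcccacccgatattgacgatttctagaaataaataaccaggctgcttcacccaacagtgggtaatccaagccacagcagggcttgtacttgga
Cyp4b1: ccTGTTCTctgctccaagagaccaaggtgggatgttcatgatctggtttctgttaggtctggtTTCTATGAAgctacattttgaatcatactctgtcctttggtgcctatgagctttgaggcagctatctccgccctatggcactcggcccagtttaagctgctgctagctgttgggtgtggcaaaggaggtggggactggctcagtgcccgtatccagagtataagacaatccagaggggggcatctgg
Cyp2d26: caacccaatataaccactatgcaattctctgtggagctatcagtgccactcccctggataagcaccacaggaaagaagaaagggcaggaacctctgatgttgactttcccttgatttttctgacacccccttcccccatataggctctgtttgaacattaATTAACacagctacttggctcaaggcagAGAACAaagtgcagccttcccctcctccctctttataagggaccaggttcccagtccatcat

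The motifs were GTTAAT (an HNF1 half-site), TTCNNNGAA (STAT), AGAACA (a half-site of the androgen and glucocorticoid receptors) and AGGTCA (a nuclear receptor half-site), each on both strands, and TATAAA on the gene's strand, and no 2 matches overlapped in the sequences shown. In windows of 300 bases, 50 of them after the start, they occur in 7.2%, 8.47%, 19%, 16% and 8.88% of 27025 promoters. Counted in bases from the start, Cyp2e1 holds TATAAA at -31 and Cyp2j5 holds AGGTCA at -197. Cyp4b1 holds AGAACA on the opposite strand (printed as TGTTCT) at -248 and a STAT match at -187. Cyp2d26 holds GTTAAT on the opposite strand (ATTAAC) at -90 and AGAACA at -62. The 4 promoters share no motif across all of them, and a match describes letters only.

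Cyp7b1, the oxysterol 7 alpha-hydroxylase, had the widest gap. It stood at 3.97, 7.37, 5.26 and 4.34 in females WT 612, WT 650, TG 614 and TG 652. It stood at 10.64, 11.13 and 10.74 in WT males 618, 658 and 663 and at 11.70, 11.61 and 11.65 in TG males 619, 657 and 661. WT 650, the animal with high Adipoq and Retn, was the highest female and still lay far below every male. Females were lower by 6.01 ± 0.58 on the log2 scale, or 64.5-fold (adjusted p = 0.000223), and WT 612 lay under the floor. The second probe set gave -6.39 ± 0.47 and lay under the floor in WT 612, TG 614 and TG 652, at 3.01, 3.46 and 2.30. The pair had ranks 2 and 1 of the 6814 tested by absolute difference. The filter keeps transcripts seen in the 4 females alone, such as Xist, out of that ranking. For the first probe set the gap was -5.17 in WT and -6.85 in TG, where WT alone gave an adjusted p of 0.0544. Without WT 650 the difference between the sexes was -6.86 (adjusted p = 2.57e-07).

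Cyp4a14, a fatty acid omega-hydroxylase related to Cyp4a10, had rank 3 and went the opposite way. It stood at 10.86 and 11.52 in WT females 612 and 650 and at 9.44 and 10.11 in TG females 614 and 652. It stood at 3.84, 3.50 and 3.40 in WT males 618, 658 and 663, all under the floor, and at 4.79, 5.13 and 6.45 in TG males 619, 657 and 661. All females lay over all males, by 5.96 ± 0.60 (62.3-fold, adjusted p = 0.000281). The gap was 7.61 in WT and 4.32 in TG. Cyp4a10 leaned the same way in females, by 0.81 ± 0.26 (adjusted p = 0.0749), and passed with number range in the model or without TG 614.

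Cyp2e1, with values given above, was lower in females by 2.46 ± 0.21 (5.50-fold, adjusted p = 0.000124), by 2.36 in WT and 2.56 in TG. Cyp4b1 read 11.12 and 12.34 in WT females 612 and 650, 12.44 and 12.87 in TG females 614 and 652, 13.77, 13.70 and 13.60 in WT males 618, 658 and 663, and 13.59, 13.74 and 13.59 in TG males 619, 657 and 661. The 6 males lay within a narrow band and the 4 females below it, spread more widely. Females were lower by 1.47 ± 0.25 (2.78-fold, adjusted p = 0.00742). A further probe set that names Cyp4b1 together with its pseudogene Cyp4b1-ps2 gave -1.29 ± 0.23 (adjusted p = 0.00881). Cyp2j5 was lower in females by 0.87 ± 0.14 (1.83-fold, adjusted p = 0.00598), and its highest female, WT 612 at 7.87, lay below its lowest male, TG 657 at 8.00.

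Cyp2d26, a member of the 2D subfamily, read 11.22 and 11.52 in WT females 612 and 650 and 10.42 and 11.58 in TG females 614 and 652. It read 9.54, 10.29 and 10.21 in WT males 618, 658 and 663 and 9.84, 10.52 and 10.53 in TG males 619, 657 and 661. TG 614 fell among the males and the other females lay over them. Females were higher by 1.03 ± 0.27 (2.04-fold, adjusted p = 0.0418). The call was lost in 9 of the 10 fits that each omitted an animal (adjusted p up to 0.108) and held only without TG 614 (adjusted p = 0.00844). For Cyp2d9 the sexes did not overlap, with females lower by 0.37 ± 0.11 (adjusted p = 0.0702). They did overlap in a probe set shared by Cyp2d12 and Cyp2d9, at a mean of 10.17 (-0.16 ± 0.27, adjusted p = 0.722 by limma).

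**Figure D3:**
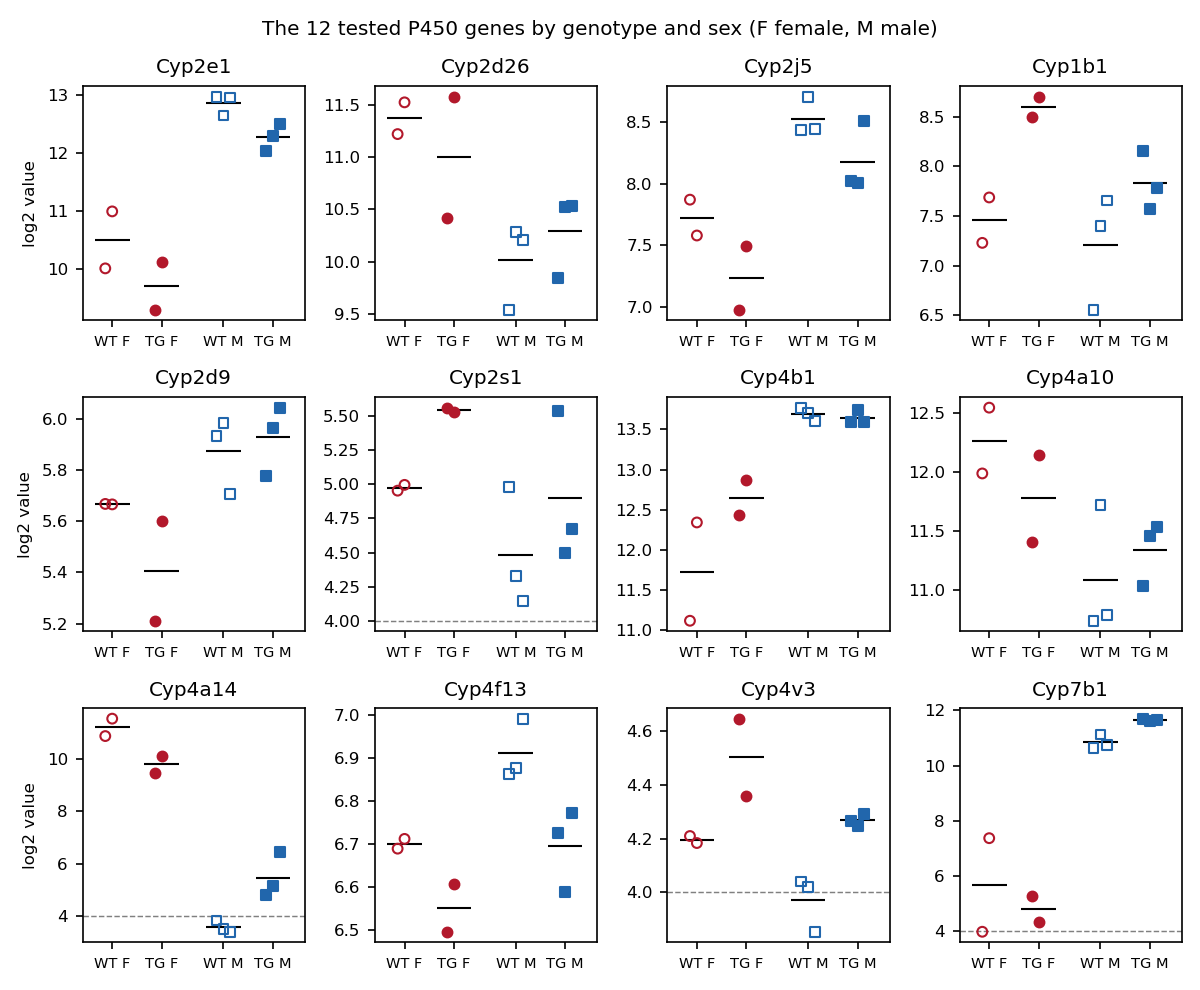
Log2 values of the 12 tested P450 genes by genotype and sex, 1 point per animal, with the mean of each subgroup as a line and the floor of 4 dashed where it falls in range; each panel has its own vertical axis. Cyp7b1, Cyp2e1, Cyp4b1, Cyp2j5 and Cyp2d9 lie lower and Cyp4a14 higher in the 4 females than in all 6 males.

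The other tested genes did not pass for sex. Cyp1b1 differed by 0.51 ± 0.22 (adjusted p = 0.159), Cyp2s1 by 0.57 ± 0.21 (0.110), Cyp4v3 by 0.23 ± 0.08 (0.0966) and Cyp4f13 by -0.18 ± 0.07 (0.144). Within the animals numbered 612 to 619 and within those numbered 650 to 663, the called genes kept their direction: Cyp7b1 at -6.55 and -5.43, Cyp4a14 at 5.83 and 6.19, Cyp2e1 at -2.85 and -2.04, Cyp4b1 at -1.90 and -1.05, Cyp2j5 at -0.80 and -0.88, and Cyp2d26 at 1.13 and 1.16. They also kept it within each fluidics station and each chip lot that held both sexes. Of 3 measured androgen-sensitive kidney genes outside the P450s, 2 were lower in females, beside 4.45% of all probe sets: Odc1 (by 1.41) and Gusb (by 1.15). Kap was not past the test (-0.27, adjusted p = 0.105). Odc1 overlapped between the sexes, with TG male 619 at 9.74 below WT female 650 at 9.85. Its TG minus WT difference was -0.55 in females and -1.69 in males.

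Whether genotype acted differently in the sexes was tested as an interaction. None of the 12 genes passed (0 of 12, limma), beside 0.0147% of all probe sets, and 2, Cyp4a14 and Cyp4b1, had an unadjusted p under 0.05, beside 4.15%. Cyp4a14 had TG minus WT at -1.41 in females and 1.87 in males. Every TG female lay below every WT female and every TG male above every WT male, a crossing without overlap that 0.998% of all probe sets showed. The interaction, female minus male, was -3.29 ± 0.63 (unadjusted p = 0.000534, adjusted p = 0.519). Because the WT males lay under the floor, the interaction was computed again with such values set to 4, and its size then was -2.87. Cyp4b1 had an interaction of 0.97 (unadjusted p = 0.0455), with both TG females over both WT females, and 35.9% of all probe sets did not overlap between genotypes in females. For Cyp7b1 every TG male lay over every WT male, as 20.7% of all probe sets did not overlap in males, while females overlapped, and the interaction was -1.69 (adjusted p = 0.996).

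**Figure D4:**
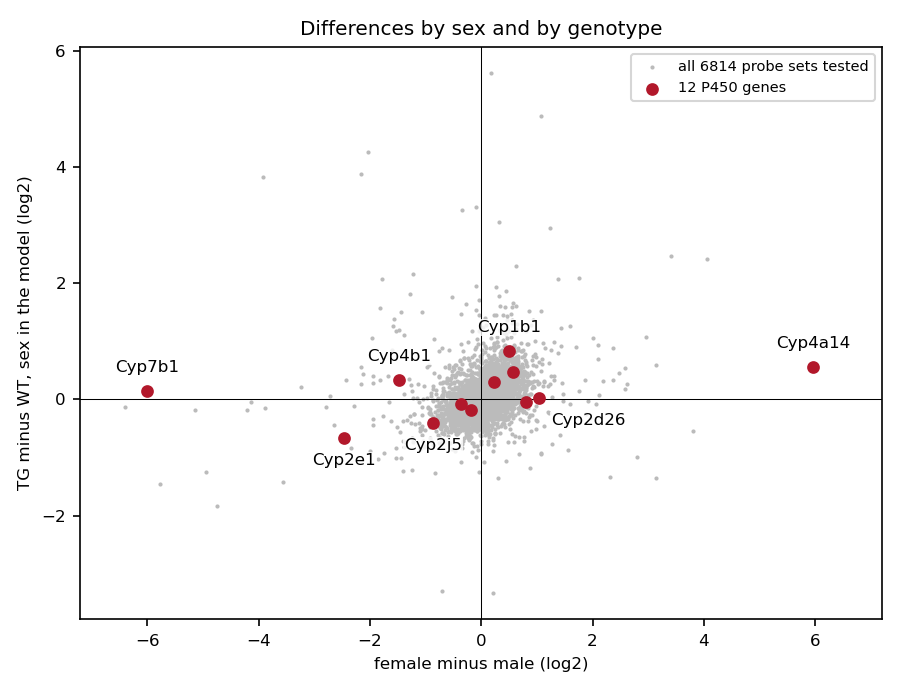
Log2 difference of female minus male (horizontal) against TG minus WT with sex in the model (vertical) for all 6814 tested probe sets in grey and the 12 P450 genes in red. Cyp7b1 at -6.01 and Cyp4a14 at 5.96 lie at the horizontal extremes, and the 12 genes lie between -0.67 and 0.84 on the vertical axis.

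Several P450 probe sets fall outside the rule because of their names. Cyp51, the sterol demethylase of cholesterol synthesis, differed by -0.05 with genotype and 0.13 with sex, and passed neither test. Cyp4a12b, an arachidonic acid hydroxylase known from male mouse kidney, read 1.29 and 5.81 in WT females 612 and 650, 8.36, 9.29 and 7.87 in WT males 618, 658 and 663, 1.03 and 3.62 in TG females 614 and 652, and 5.13, 9.26 and 7.35 in TG males 619, 657 and 661. It was lower in females by 4.94 ± 0.98 (adjusted p = 0.0146), with WT 650, the animal with high Adipoq and Retn, over TG 619. The part of adipose tissue in that value was not tested. A probe set shared by Cyp2a5 and Cyp2a4 was lower in females by 0.81 (adjusted p = 0.0275), and one shared by Cyp4a32 and Cyp4a31 was higher by 0.55 (adjusted p = 0.0439).

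Genes that work with P450 enzymes were counted alongside, 36 of them tested. None passed for genotype (0 of 36, limma, beside 1.22% of all probe sets, with 8 at an unadjusted p under 0.05, beside 12.7%), and with sex in the model 1 rose and 3 fell, beside 4.18% called in all. Of 13 tested redox partners and heme genes the heme-binding P450 partner Pgrmc1 rose by 0.46 ± 0.09 in that model (adjusted p = 0.0214). Of 11 tested receptors and factors that control P450 genes Nr1h3, the oxysterol receptor LXR alpha, fell by 0.51 ± 0.11 (adjusted p = 0.0352). Of 12 tested enzymes that act beside P450s, Ephx2, the soluble epoxide hydrolase, fell by 0.56 ± 0.13 (adjusted p = 0.0368) and the glucuronosyltransferase Ugt2b5 by 1.02 ± 0.17 (adjusted p = 0.0126). Aldh1a1, a retinaldehyde dehydrogenase, had the largest difference of the 36, 3.32 ± 1.09 with sex in the model (adjusted p = 0.130). With genotype alone it was 3.32 ± 1.05 (adjusted p = 0.203), and it passed in neither fit.

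By sex, 9 of these 36 genes were lower in females, beside 4.45% of all probe sets, and 1 was higher, beside 4.08%. The flavin monooxygenase Fmo5 was lower by 3.88 ± 0.20 (14.7-fold, adjusted p = 3.37e-06), Adh1, an alcohol dehydrogenase, by 1.95, Ugt2b5 by 1.86, Ephx2 by 1.46 and Aldh3a2, a fatty aldehyde dehydrogenase, by 0.87. Among redox and heme genes cytochrome b5 (Cyb5a, by 0.45), its reductase (Cyb5r3, by 0.55) and the heme synthesis gene Cpox (by 0.69) were lower, and Pgrmc1 was higher by 0.36. The growth hormone receptor gene Ghr was lower by 0.70 (adjusted p = 0.0431) and was the 1 receptor gene called.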

How the data were processed

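Log2 values were used as deposited, made by the authors with GCRMA per the submitters' processing notes (version not given in the sources used here). That the scale is log2 was read from the values. The array run records gave chip lot, fluidics station and day order, per the file headers. The 66 control probe sets were left out, and genes were named from the platform annotation (0 symbols replaced, 16 unmatched). Probe sets over log2 4 on at least 5 of 10 arrays (6814) were fitted with limma 3.58.1 in R 4.3.3 (lmFit, eBayes), two-sided, with Benjamini-Hochberg adjustment over all of them and a threshold of 0.05. Errors of differences are limma standard errors. Each array is a separate animal, and their small number limits precision. Where a gene has several probe sets, the one with the highest mean stands for it. The fits were tested on simulated data. Figures used Python 3.11.15 and matplotlib 3.10.9.

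The P450 genes, companion lists and markers were chosen with earlier results of these data known. Values of every animal are printed for genes past a threshold by genotype or sex, for Cyp2e1, for up to 3 genes with the highest mean in each family, and for the gene with the smallest genotype p in each family. Sex was read from Xist (female over log2 6). Alternatives covered filters (log2 over 6, none), normalization, variance settings, batch and sex terms, and leaving out each animal, and others were added after the data were seen.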

Additional observations from a re-analysis of the deposited data

Results flagged for a closer look

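Cyp4a14 stood out because its genotype difference had opposite signs in the sexes, with every TG female below every WT female and every TG male above every WT male. The difference of TG minus WT in females minus that in males was -3.288 on the log2 scale (limma, unadjusted p = 0.000534, adjusted p = 0.519), and it rests on 2 females and 3 males per genotype.

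Cyp4v3 in TG 614, at 4.6469, lay apart from the other 4 TG animals at 4.25 to 4.36. It was 1 such animal in 24 groups of 5 examined, and chance alone marks about 1 group in 20.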

How the results depend on the processing

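The count of P450 genes past the test for TG minus WT was 0 in all alternatives but sex and number range in the model, added after the data were seen, where it was 3 (Cyp1b1, Cyp2e1 and Cyp4v3), beside 8.06% of all probe sets. It ranged from 0 to 0 with 1 animal left out. For female minus male it was 2 in WT alone (beside 1.61% of all) and 3 in TG alone (beside 0.837%), both fits with fewer animals, and 5 to 7 with 1 animal left out. The Cyp2e1 difference of -0.67 gave exact permutation p = 0.0333 within each sex, a test not repeated with animals left out. Over all splits, where p was 0.468, leaving out 1 animal moved the difference between -1.14 and -0.18 (exact p 0.222 to 0.865). Those differences took no account of sex, and the sexes were then unbalanced between the genotypes. With all animals, the Cyp2e1 difference was -0.79 within females and -0.58 within males. For single genes, 613 alternative values kept their side of the threshold, 8 gained a call and 18 lost one, 13 of these for Cyp2d26, including with no filter (adjusted p = 0.0636). Of the 613, the sign turned in 38, 37 of them for TG minus WT, where Cyp7b1 (10), Cyp2d26 (8), Cyp4a14 (8) and Cyp4a10 (7) turned most often and none was called. Fits for TG minus WT with 1 animal left out held no sex term, and the sexes were then unbalanced between the genotypes. A sex difference thus enters their TG minus WT difference, and its share in the turned signs was not tested. Quantile normalization moved Cyp4v3 past the test for sex (adjusted p = 0.0188), as did median centring (0.0283). Cyp2d9, Cyp2s1 and Cyp4v3 gave no value at a filter of log2 over 6. No paired analysis was made, since each animal has 1 genotype and no litter was recorded among the labels used here. Probe sets close to the floor, such as those of Cyp4v3 and Cyp4a14 in males, limit what their differences can show.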
